A study of Drosophila melanogaster with 3 samples.

Results

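Cuticle protein genes code for the secreted proteins that, together with chitin, build the outer covering of the fly. The set held the protein-coding genes whose symbols mark them as Cpr, Lcp, Tweedle, Edg, Pcp or Acp65A genes in the dm6 annotation of Ensembl release 115. The rule took 115 genes of the 13945 protein-coding genes on chromosomes that held a peak. The members were 70 Cpr genes, 16 genes of the Lcp group, which takes in Acp65Aa, 25 Tweedle genes, and 4 Edg and Pcp genes. The measurement was ChIP-seq, in which an antibody recovers a protein with the DNA it occupies and that DNA is sequenced. The protein was Grauzone, a zinc finger protein known as the activator of cortex in the female germ line. The flies were a transgenic line whose grau product ends in GFP, and an antibody against GFP was used. There was 1 group, of 3 biological replicates, each of whole embryos of both sexes at 0 to 24 h of age, with DNA fragments of 200 to 800 bp. The sources used here did not give the promoter that drives the transgene. Whole embryos mix all tissues and ages, so a site used in the epidermis alone cannot be told apart from weak use elsewhere. No control list was analysed here.

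Most Cpr proteins carry the Rebers and Riddiford consensus, a stretch that binds chitin. Lcp genes were named as larval cuticle proteins, Pcp as a pupal and Acp65Aa as an adult cuticle protein, and Edg genes as ecdysone-dependent genes of the pupal period. Tweedle proteins are a separate family of cuticle proteins, known from mutants with a squat body. The epidermis and the tracheae secrete the larval cuticle late in embryonic life. Many cuticle protein genes lie in tandem arrays that arose by duplication.

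Each deposited list gives peaks with a signal value, whose scale was not stated, and a point source, the most enriched base. Each replicate list and the list from pooled replicates held 30000 peaks, with q at or below 0.01 for 54.3% to 60.9% of them. The reproducible list, thresholded by irreproducible discovery rate, held 9624 peaks, all of them in the pooled list. A promoter peak is one whose point source lies within 500 bp of any annotated start of a gene. Read depth was not used here, so the precision of a single peak is unknown.

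Grauzone promoter peaks were rare at cuticle protein genes. In the reproducible list 5 of 115 members had one, which is 4.35% (95% Clopper-Pearson interval 1.43% to 9.85%, counting error only), against 32.1% of all protein-coding genes. The pooled list put a promoter peak at 16 members, or 13.9%, against 47.9% of all protein-coding genes. Replicate 1 had one at 10 members, or 8.70%, against 50.8%. Replicate 2 had one at 12 members, or 10.4%, against 51.6%. Replicate 3 had one at 19 members, or 16.5%, against 47.5%. The members' share was thus lowest in replicate 1 and highest in replicate 3, and it lay far below the share of all protein-coding genes in each list. Its mean over the replicates was 11.9% ± 4.11 (SD, n = 3), and the difference from all protein-coding genes was -38.1 ± 6.14 percentage points. Among the 9624 strongest peaks of each replicate the mean share of members was 2.90% ± 0.502, against 32.7% ± 1.80 of all protein-coding genes. No test was run over the members, since they were chosen with results of these data known.

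**Figure D1:**
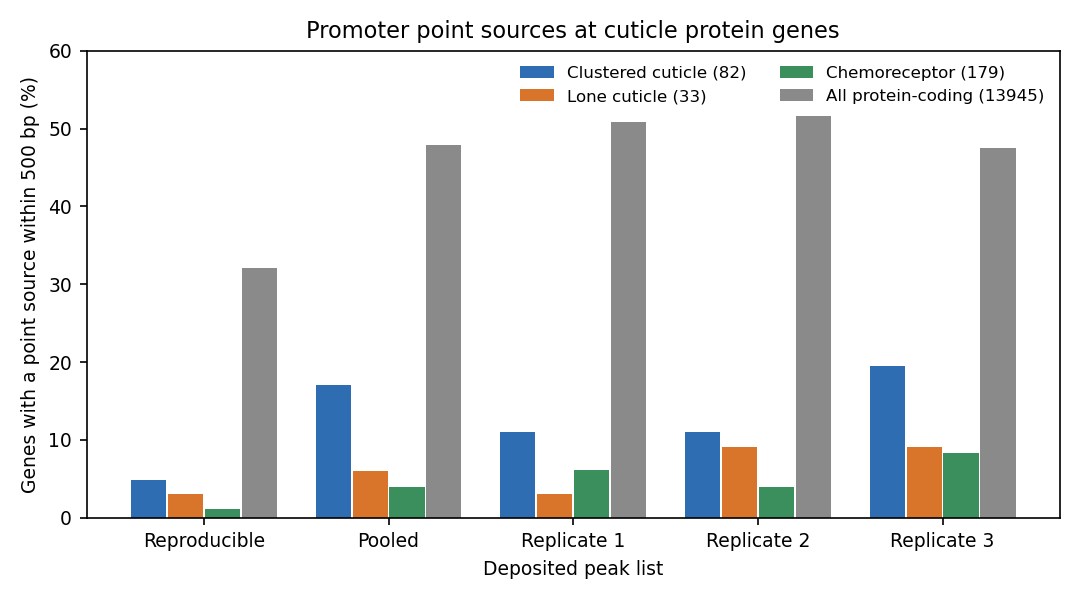
Share of genes (%) with a point source within 500 bp of a start in each of the 5 deposited lists, for clustered cuticle genes (82), lone cuticle genes (33), chemoreceptor genes (179) and all protein-coding genes (13945). In all 5 lists the 3 groups of clustered, lone and chemoreceptor genes lie below 20%, while the grey bars of all protein-coding genes lie between 32.1% and 51.6%.

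The layout of the genes differed from that of most genes. A start on the other strand within 500 bp, which makes a promoter divergent, was found for 5 members (4.35%) and for 30.6% of all protein-coding genes. Members were also short, with a median length of 983 bp against 2166 bp, and 90.4% of them had 1 annotated start against 73.5%. Among genes with no divergent start, 5 of 110 members (4.55%) had a reproducible promoter peak, against 22.1% of protein-coding genes of that kind. The members' share stayed below the background in this smaller set.

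The 5 members with a reproducible promoter peak were Cpr65Ea, Cpr67Fa1, Cpr67Fb, Cpr72Eb and Edg91. Each of the 5 point sources lay upstream of the gene, in 4 cases between annotated genes. The point source of Cpr67Fb lay in an exon of asRNA:CR45171, an antisense RNA. Windows of 101 bases around these point sources are printed because they are the promoter sites of the reproducible list. Weaker peaks of the other lists came closer to some members. They are taken from the Release 6 (dm6) reference sequence, 5′ to 3′ on the strand of the gene. Capitals mark the searched words TATAAA and GAGAG, read on either strand, and in Cpr65Ea a pair of overlapping TATAAA matches.
Cpr65Ea, chr3L:7086798-7086898, minus strand: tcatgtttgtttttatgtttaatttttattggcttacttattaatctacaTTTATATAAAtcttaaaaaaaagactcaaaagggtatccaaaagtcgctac
Cpr67Fa1, chr3L:10889469-10889569, plus strand: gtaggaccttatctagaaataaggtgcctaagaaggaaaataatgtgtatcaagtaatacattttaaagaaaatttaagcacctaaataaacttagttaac
Cpr67Fb, chr3L:10893684-10893784, plus strand: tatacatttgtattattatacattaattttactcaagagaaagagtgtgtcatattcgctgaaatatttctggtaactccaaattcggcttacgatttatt
Cpr72Eb, chr3L:16364355-16364455, plus strand: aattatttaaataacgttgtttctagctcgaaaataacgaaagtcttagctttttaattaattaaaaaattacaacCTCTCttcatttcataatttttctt
Edg91, chr3R:17611942-17612042, minus strand: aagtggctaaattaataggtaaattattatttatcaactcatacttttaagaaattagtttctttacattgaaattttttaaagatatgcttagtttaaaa

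All 5 windows were rich in A and T. The share of A and T was 76.2% at Cpr65Ea, 72.3% at Cpr67Fa1, 72.3% at Cpr67Fb, 78.2% at Cpr72Eb and 81.2% at Edg91. Over the 9624 reproducible peaks the median was 68.3%, with quartiles of 60.4% and 74.3%, so 3 of the 5 lay above the upper quartile. None of the 9 searched words was found in the windows of Cpr67Fa1, Cpr67Fb and Edg91.

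Cpr67Fb and Cpr67Fa1 belong to the same array at 67F and had a promoter peak in every list. The peak of Cpr67Fb, at chr3L:10893398-10893835, had its point source 439 bp upstream of the start. Its signal was 555.6 in the pooled data, rank 3797 of 9624, and the replicates gave 211.1, 69.8 and 210.2 in the order of their numbers. Replicate 2 was low, with rank 8992 of 30000 against 3763 in replicate 1 and 3868 in replicate 3. A stronger reproducible point source, with signal 836.0 and rank 2448, lay 646 bp from the same start. The peak of Cpr67Fa1, at chr3L:10889428-10889601, lay 471 bp upstream with signal 303.5 and rank 6839. Its replicate signals were 122.3, 97.4 and 95, at ranks 6902, 6424 and 7890, so the 3 replicates placed it at a like height.

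Cpr65Ea, the first gene of the array at 65E, had the closest reproducible point source of all members. The peak spanned chr3L:7086638-7087057 and its point source lay 240 bp upstream, with signal 253.1 and rank 8012. The replicates gave signals of 95.3, 71.9 and 86.4 at 193, 238 and 280 bp upstream. Their ranks of 8840, 8756 and 8481 differed little.

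Cpr72Eb and Edg91 were near the edge of the 500 bp window. The peak of Cpr72Eb, at chr3L:16364195-16364614, lay 494 bp upstream with signal 213.6 and rank 9188, close to the end of the reproducible list. A promoter point source was found for it in replicate 3 alone, with signal 64.7 and rank 10561. The nearest point source was at 511 bp in replicate 2 and at 4908 bp in replicate 1. The peak of Edg91, an ecdysone-dependent gene, spanned chr3R:17611855-17612034 and lay 481 bp upstream with signal 397.8 and rank 5299. In the replicate lists the nearest point sources to Edg91 were at 580, 579 and 521 bp, so each of the replicates had a site there that fell just outside the window.

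These positions were far from the start compared with those of other genes. Among the 4476 protein-coding genes with a reproducible promoter peak the median distance was 126 bp, and 874 of them (19.5%) lay at 240 bp or more, the distance of the nearest member. Within 250 bp the count was 1 member, or 0.870%, against 26.3% of all protein-coding genes. Within 100 bp it was 0 members against 12.5%. Upstream positions made up 84.8% of all such genes, so lying upstream was common. By strength the members' median rank was 6839, against 3916 for all such genes.

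Just outside the window stood Cpr73D, Cpr65Az and Cpr65Ay. The point source nearest Cpr73D was strong, with signal 1151.7 and rank 1641 at 787 bp, and it lay within both Cpr73D and an intron of Ogdh, 537 bp from a start of that gene, which codes for a subunit of oxoglutarate dehydrogenase. The one nearest Cpr65Az lay 794 bp upstream, with signal 277.7 and rank 7391. The one nearest Cpr65Ay lay 831 bp downstream of its start, with signal 516.3 and rank 4100, and was 422 bp from the start of CG13297.

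In the pooled and replicate lists further members had promoter peaks, most of them weak. The median rank of a member's promoter peak was 18105 in the pooled list, against 6460 for all protein-coding genes. In the replicates it was 17826, 20962 and 20416, against 6572, 6910 and 6408. A q-value of 0.01 or less was reached by 8 of the 16 members of the pooled list and by 5, 5 and 7 members in the replicates. No replicate list had a promoter peak at 90 members (78.3%), against 40.0% of all protein-coding genes. All 3 lists had one at 6 members (5.22%), against 39.5%.

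Besides Cpr65Ea, Cpr67Fa1 and Cpr67Fb, the members with a promoter peak in all 3 replicates were Cpr65Av, Lcp65Ae and Cpr78Cb. Cpr65Av came closest to the reproducible list, with a pooled signal of 194.5 at rank 9876 and a point source 379 bp upstream. Its replicate signals were 57.8, 86.5 and 42.9, highest in replicate 2, at 373, 395 and 415 bp upstream. Lcp65Ae had a pooled signal of 68.1 at rank 19879, and replicate signals of 21.4, 21.3 and 21.2. Those values were alike and low, at ranks 28002, 23458 and 22382. Cpr78Cb had a pooled signal of 93.5 at rank 16331 and replicate signals of 43.5, 28.0 and 38.3, with replicate 2 lowest. At best, its point sources in the 3 replicates were spread over 301 bp, against 42 bp for Cpr65Av and 61 bp for Lcp65Ae. The 3 replicates thus shared no site of Cpr78Cb within 100 bp. A pooled promoter peak of Cpr78Cb was matched within 100 bp in replicates 1 and 2.

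The other members with a pooled promoter peak were Lcp65Ag2, Cpr65Au, Cpr65Ay, Lcp65Ad, Cpr78Ca, Cpr78Cc, Cpr31A and TwdlN. TwdlN was the highest of them, with a pooled signal of 97.4 at rank 15923 and a promoter point source in replicate 2 alone. Replicate 3 had a point source 565 bp upstream of TwdlN, outside the window but within 100 bp of the pooled one. The other 7 ranked between 22292, for Cpr78Cc, and 27780, for Cpr31A. Lcp65Ag2 had the nearest pooled point source of any member, 59 bp downstream of its start, with a signal of 53.3. Replicates 1 and 3 had a point source there, and replicate 2 had its nearest at 704 bp. Cpr35B had no pooled promoter peak but had one in replicate 2 and one in replicate 3, both in its coding exon, with signals of 16.7 and 17.8.

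**Figure D2:**
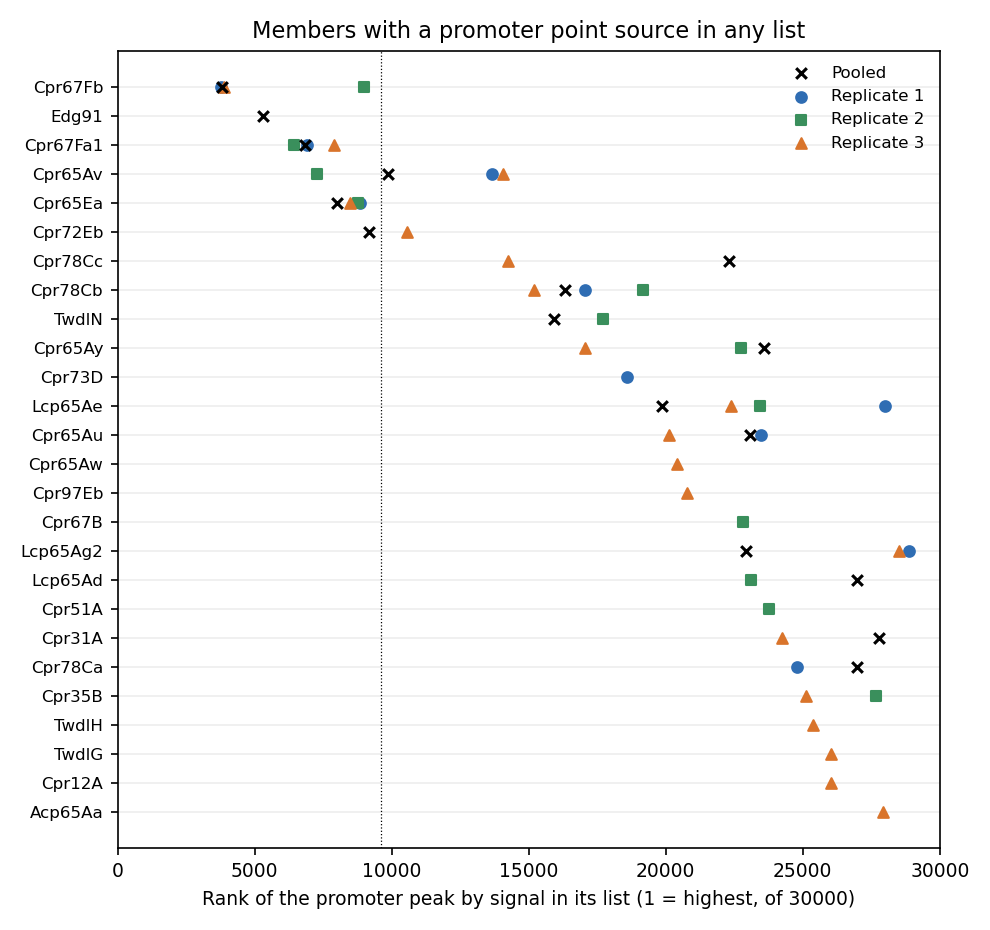
Rank by signal of the promoter peak of each member that had one in the pooled list or a replicate list (1 is the highest of 30000), with the dotted line at rank 9624, the size of the reproducible list. The marks of Cpr67Fb, Cpr67Fa1 and Cpr65Ea lie left of the line in every list, while most other members lie well to its right.

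The families differed in how often a peak was found. Of 70 Cpr genes, 4 had a reproducible and 11 a pooled promoter peak, and the replicates gave 14.8% ± 4.59 (SD, n = 3). Of the 16 genes of the Lcp group, 0 had a reproducible and 3 a pooled one, with 14.6% ± 3.61 in the replicates. None of the peaks of these 16 genes reached q of 0.01 in any replicate. Of 25 Tweedle genes, 0 had a reproducible and 1 a pooled promoter peak, with 4.0% ± 4.0 in the replicates, from 0% in replicate 1 to 8.0% in replicate 3. Of Edg78E, Edg84A, Edg91 and Pcp, Edg91 alone had one. The Cpr and Lcp shares were within 1 SD of each other, and the Tweedle share was lower than both by more than its SD. Family and array overlap, since most members of a family are neighbours, so these genes are not independent.

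Clustered genes, those with the start of another member within 20 kb, numbered 82, and lone genes numbered 33. In the reproducible list 4 clustered genes (4.88%, interval 1.34% to 12%) and 1 lone gene, Edg91 (3.03%, interval 0.0767% to 15.8%), had a promoter peak. The interval of the clustered genes lay within that of the lone genes. Both intervals treat genes as independent, which genes of the same array are not, so this is no test. In the replicates the clustered share was 11.0%, 11.0% and 19.5%, and the lone share 3.03%, 9.09% and 9.09%. The clustered share was the higher in each replicate, by 7.95, 1.88 and 10.4 points, with a mean of 6.75 ± 4.39 points (SD, n = 3). Among the strongest 9624 peaks the difference was 4.07 ± 0.704 points. It came from 3, 4 and 3 of the 82 clustered genes in the replicates, with 0 of the 33 lone genes carrying a peak in any.

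In the whole lists the size of the difference depended on the array at 65A, with 18 members. Its share was 27.8% ± 9.62 in the replicate lists, between 22.2% and 38.9%. Without it the difference between clustered and lone genes was 2.83 ± 3.56 points, with 4.78, -1.28 and 4.97 in the replicates, so it no longer had the same sign in each. This left-out set was chosen after seeing the data. Among the strongest 9624 peaks the difference without the array was 4.69 points in each replicate. It rested on 3 of 64 clustered genes, Cpr65Ea, Cpr67Fa1 and Cpr67Fb, against 0 of 33 lone genes. All protein-coding genes stood at 30.7% to 34.2% in those peaks. With q at or below 0.01 the difference without the array was 7.29 ± 1.80 points, above 0 in all 3 replicates. With the array it was 6.91 ± 1.41 points there, also above 0 in all 3. Among the strongest 9624 peaks the 65A share was 1.85% ± 3.21, and 0 of the 18 members had a reproducible promoter peak. Near copies lie in this array. Of the 115 members, 9 had more than 10% of the 50-base words around their start repeated elsewhere in the genome, and 4 had more than 50%, namely Lcp65Ab1, Lcp65Ab2, Cpr65Ax1 and Cpr65Ax2. The treatment of reads that match several places is not stated in the labels, and its part in the result was not tested. With the 9 genes left out the count in the reproducible list was still 5.

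The distance to the nearest reproducible point source had a median of 8136 bp for the members and 3189 bp for all protein-coding genes. It was 7352 bp for clustered and 11330 bp for lone genes. Replicate 1 reversed that order, with 7497 bp for clustered and 6361 bp for lone genes. Replicates 2 and 3 kept it, with 3970 and 4831 bp in replicate 2 and 2038 and 3843 bp in replicate 3. The median over all members in the replicates was 6955, 4177 and 2414 bp, against 455, 414 and 640 bp for all protein-coding genes. More than 10 kb separated 55 members (47.8%) from any reproducible point source, against 26.7% of all protein-coding genes. In the replicates that share was 43.5%, 27.0% and 13%, against 18.2%, 16.2% and 10.7%, so the gap was small in replicate 3. Among genes with no divergent start replicate 3 gave 11.8% of members and 12.3% of all protein-coding genes. Within 50000 bp of a reproducible point source the members stood higher, at 99.1% against 95.9%. Tweedle genes had a median of 21018 bp, Cpr genes 6731 bp, Lcp genes 6228 bp and the 4 Edg and Pcp genes 3354 bp. The farthest members were Cpr92F at 64197 bp, Cpr49Ac at 48886 bp and Cpr49Ad at 44233 bp.

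**Figure D3:**
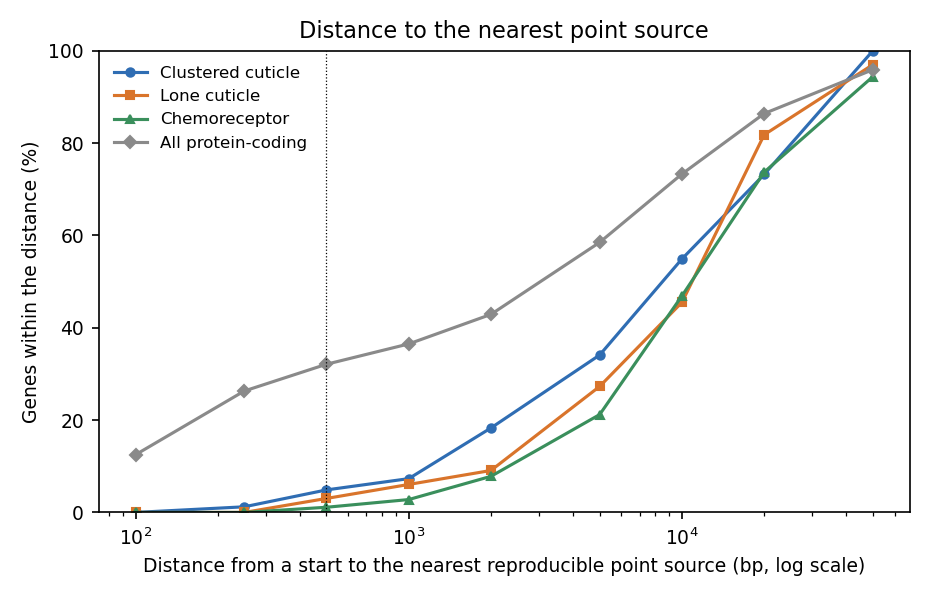
Cumulative share of genes (%) against the distance from a start to the nearest reproducible point source (bp, log scale), with the dotted line at 500 bp. All protein-coding genes are at 12.5% by 100 bp, while the cuticle and chemoreceptor curves leave 0 later and come near the grey curve at 50000 bp.

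Chemoreceptor genes (Or, Gr and Ir), also tissue-restricted and often in tandem, were set beside them. Of 179 chemoreceptor genes 2 (1.12%) had a reproducible promoter peak, and their median distance was 11091 bp. In the replicates their share was 6.15% ± 2.23. The cuticle share was higher by 2.55, 6.52 and 8.14 points, with a mean of 5.74 ± 2.88 points (SD, n = 3). Among the strongest 9624 peaks the difference was 1.41 ± 0.825 points. Chemoreceptor genes thus had low shares too.

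Chains of 3 or more members, each within 20 kb of the next, formed 14 arrays with 80 members and 196 kb between first and last starts. They held 11 reproducible point sources, or 56.1 per Mb, against 72.6 per Mb over the large chromosome arms, a ratio of 0.773. In the replicates the arrays held 25, 34 and 40 point sources, at ratios of 0.564, 0.766 and 0.900. Density in the arrays was thus below the genome in each list, but by less than the promoter shares were. Of the 11 point sources 10 were intergenic and 1 lay in the antisense RNA exon named above. Some lay nearer to other genes, such as a point source of signal 664.2 within the 47E array, 573 bp from TpnC47D, a troponin C gene.

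The arrays differed widely. Reproducible point sources were found in 5 of them, with 3 in the 18-gene array at 65A (29.8 kb), 3 in the 7-gene array at 47E (25 kb), 2 each at 65E and 67F, and 1 at 72E. At 65A the pooled list had 18 point sources and the replicates 15, 15 and 14, so the array held many weak peaks. The array at 78C had 0 reproducible and 6 pooled point sources. The arrays Lcp1 to Lcp4, Cpr64Aa to Cpr64Ad, Cpr76Ba to Cpr76Bd and TwdlX to Twdlalpha held none in any of the 5 lists. Cpr49Aa to Cpr49Ah, with 8 genes over 37.3 kb, had none in the reproducible and pooled lists or in replicates 1 and 2, and 4 in replicate 3. Cpr62Ba to Cpr62Bc and TwdlF to TwdlV likewise had point sources in replicate 3 alone, 1 and 2 of them. TwdlM to TwdlD, with 12 genes over 20.9 kb, had 2 pooled point sources and 0, 1 and 3 in the replicates.

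Some empty arrays sat in long stretches free of reproducible point sources. The stretch around Lcp1 to Lcp4 was 201 kb long, that around the 49A array 98.2 kb and that around TwdlM to TwdlD 88.9 kb. Of the 9618 gaps between neighbouring reproducible point sources, with a median of 4378 bp, 99.8%, 98.4% and 98.0% were shorter, respectively. A long gap is more likely than a short one to hold a given gene, so these percentages rank the gaps and test nothing. Long stretches were not confined to empty arrays. The 65E array, with 2 reproducible point sources, bordered a free stretch of 73.1 kb, longer than 97.3% of the gaps. Other empty arrays lay in shorter stretches, of 15.9 kb at 78C and 27.8 kb at TwdlX to Twdlalpha. The Cpr76B array had a reproducible point source 1615 bp before its first start, outside the array.

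**Figure D4:**
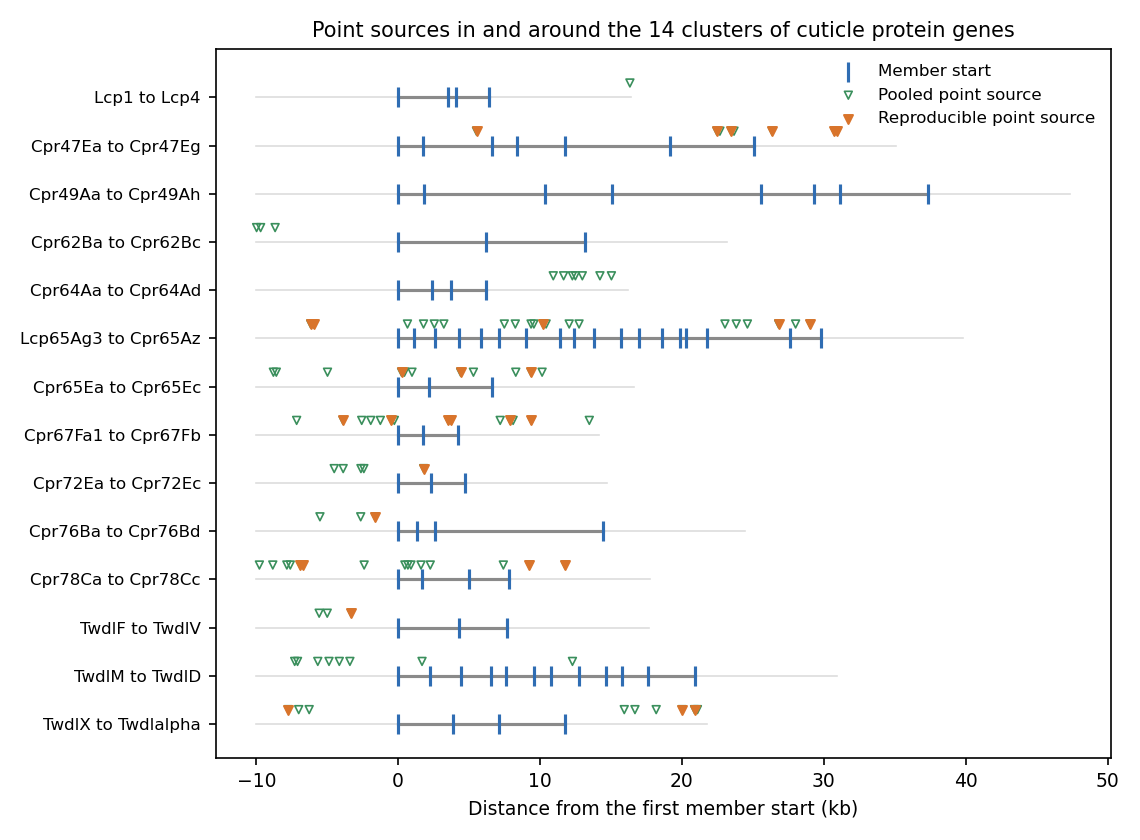
Member starts (blue ticks) and point sources of the pooled (open green) and reproducible (filled orange) lists along the 14 arrays, by distance from the first member start (kb), with 10 kb shown on either side. Point sources crowd into the 65A array and are missing between the starts of the 49A, 64A, 76B and 62B arrays.

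The promoters of the members held the TATA box far more often than other promoters. The TATA box is the element, found a short way before the start, that binds the TATA-binding protein. From 250 bp before to 50 bp after the start, TATAAA on either strand was in 90 of 115 members (78.3%) and in 45.3% of all protein-coding genes. On the gene's own strand, 45 to 15 bp before the start, it was in 73 members (63.5%) and in 8.95% of all protein-coding genes. It was there in 59.8% of clustered and 72.7% of lone members. Such a match is a description of letters and not a site in use.

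Across the genome, genes with TATAAA at that position had a lower share with a Grauzone promoter peak. Of all protein-coding genes with it, 149 (11.9%) had a reproducible promoter peak, against 34.1% of those without it. Among genes with no divergent start the values were 9.46% and 23.6%. Of the members, 4 of 73 with it (5.48%) and 1 of 42 without it (2.38%) had one, beside the 11.9% and 34.1% of all protein-coding genes. The 1 without it was Cpr67Fb, which had TATAAA farther from the start. The 42 lack the exact word at that position and may hold other forms of the element. The lower share was particular to that position. In the wider window, on either strand, 31.9% of all protein-coding genes with TATAAA had a reproducible promoter peak, against 32.3% without it. Whether TATAAA has a part in the members' low share was not tested.

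Windows from 60 bp before to 20 bp after the start are printed for the 5 members with a reproducible promoter peak, and for Cpr64Aa, TwdlM and Cpr62Bb, from arrays with no reproducible point source. These 3 were picked as examples with TATAAA near the start, in Cpr64Aa and TwdlM, and without it, in Cpr62Bb, one of the 42 members that lack it at that position. The windows are from the Release 6 (dm6) reference sequence, 5′ to 3′ on the gene's strand, with TATAAA and TCAGT, the initiator core, in capitals.
Cpr65Ea, chr3L:7086588-7086668, minus strand: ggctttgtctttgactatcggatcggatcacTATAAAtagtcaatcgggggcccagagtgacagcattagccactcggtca
Cpr67Fa1, chr3L:10889930-10890010, plus strand: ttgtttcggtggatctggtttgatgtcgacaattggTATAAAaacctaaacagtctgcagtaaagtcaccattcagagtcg
Cpr67Fb, chr3L:10894113-10894193, plus strand: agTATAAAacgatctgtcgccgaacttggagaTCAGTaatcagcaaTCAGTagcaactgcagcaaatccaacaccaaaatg
Cpr72Eb, chr3L:16364839-16364919, plus strand: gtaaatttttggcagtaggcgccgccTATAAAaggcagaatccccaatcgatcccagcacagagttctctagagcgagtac
Edg91, chr3R:17611491-17611571, minus strand: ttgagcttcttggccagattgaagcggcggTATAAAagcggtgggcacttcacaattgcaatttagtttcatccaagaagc
Cpr64Aa, chr3L:4209158-4209238, minus strand: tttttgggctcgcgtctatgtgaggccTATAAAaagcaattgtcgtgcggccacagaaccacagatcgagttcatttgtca
TwdlM, chr3R:26619058-26619138, plus strand: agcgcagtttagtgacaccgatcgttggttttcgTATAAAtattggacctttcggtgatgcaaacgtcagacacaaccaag
Cpr62Bb, chr3L:1835144-1835224, minus strand: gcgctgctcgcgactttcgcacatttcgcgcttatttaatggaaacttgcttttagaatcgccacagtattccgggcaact

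TATAAA was present in the windows of all 5 members with a reproducible promoter peak, in Cpr67Fb farther from the start than in the others. The array at 65A also holds duplicated starts. Over the 301 bases of the promoter window Lcp65Ab1 and Lcp65Ab2 were 97.0% identical, with an edit distance of 9, and Cpr65Ax1 and Cpr65Ax2 likewise. The windows of the Lcp65Ab genes, printed because such near-identical copies limit where reads can be placed, were as follows, with TATAAA in capitals.
Lcp65Ab1, chr3L:6149488-6149568, plus strand: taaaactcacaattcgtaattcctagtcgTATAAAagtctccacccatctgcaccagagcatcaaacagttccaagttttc
Lcp65Ab2, chr3L:6146614-6146694, plus strand: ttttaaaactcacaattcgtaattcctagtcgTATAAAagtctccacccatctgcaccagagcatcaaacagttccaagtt

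Words of housekeeping promoters were rare in the members. They were searched in the wider window, from 250 bp before to 50 bp after the start, on either strand. TATCGATA, the DNA replication-related element, was in 1 member (0.870%) and in 8.95% of all protein-coding genes, of which 49.9% had a reproducible promoter peak against 30.3% of genes without the word. GGTCACAC, the core of motif 1, was in 0 members and in 7.54% of all protein-coding genes, of which 52.0% had a peak against 30.5%. These are the words with the highest peak shares among the 9 searched, and the members had almost none of them. TCAGT was in 52.2% of members and 51.9% of all protein-coding genes. Member promoters held less A and T, with a median of 55.8% against 61.8%, while promoters with a reproducible peak had 62.5%.

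**Figure D5:**
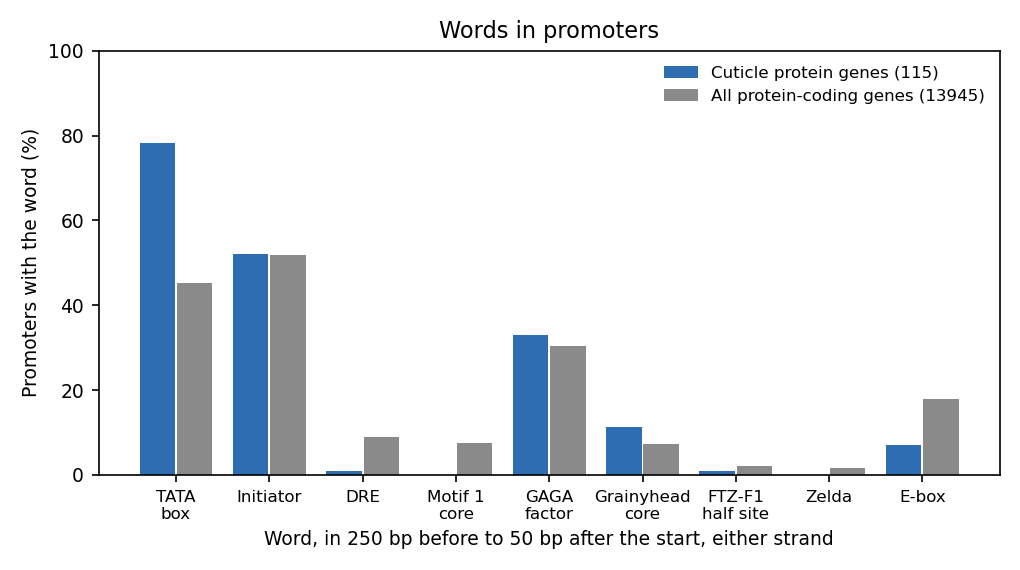
Share of promoters (%) that hold each of 9 words on either strand, from 250 bp before to 50 bp after the start, for the 115 cuticle protein genes and all 13945 protein-coding genes. The TATA box stands at 78.3% against 45.3%, and the DRE and motif 1 bars of the cuticle genes are at 0.870% and 0.

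Other genes listed under cuticle, chitin, tanning or cuticle regulators had higher shares with a promoter peak than the members. A promoter peak counts at any start of a gene, and the number of starts was not compared between these lists and the members. In the reproducible list 3 of these 4 lists still lay below the 32.1% of all protein-coding genes. Of 34 other cuticle proteins 3 (8.82%) had a reproducible one, with 27.5% ± 1.70 (SD, n = 3) in the replicates. They were snsl (signal 918.4, rank 2180), tyn (722.3) and trn (326.0). Of these trn, or tartan, codes for a leucine-rich repeat protein of the cell surface and is no structural part of the cuticle. Of 25 genes of tanning and pigment 4 (16.0%) had one, with 32.0% ± 4.0 in the replicates. They were PPO3, a prophenoloxidase (signal 1382.0, rank 1312), Pu, which codes for GTP cyclohydrolase (403.8), yellow-e3 (395.7) and t (274.8).

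The list of chitin genes and the list of regulators stood higher still. The chitin list takes in chitinase (Cht) and Idgf genes beside genes of chitin synthesis and assembly. Of 31 chitin genes 8 (25.8%) had a reproducible promoter peak, below the background of 32.1%, with a median distance of 3814 bp against 3189 bp. In the replicates their share was 63.4% ± 4.93. The 4 highest were Cht11 (signal 6304.1, rank 106), Gnpnat (3188.2, rank 383), Idgf6 (2681.5, rank 500) and Cht7 (1845.5, rank 890). Cht11 and Cht7 code for chitinase family proteins, and Gnpnat for an enzyme on the way to UDP-N-acetylglucosamine, the building block of chitin. Of 22 regulators 10 (45.5%) had one, above that background, with 81.8% ± 7.87 in the replicates. The 4 highest were Eip75B (2793.2, rank 473), trh (2273.6), tai (1237.4) and Eip74EF (1006.8). Eip75B and Eip74EF are early genes of the ecdysone response. Of the genes named from the 4 lists, tyn, Pu, Cht11 and tai had a divergent start, so their peaks cannot be assigned to a single gene. Set beside the 11.9% ± 4.11 of the members in the replicates, all 4 lists lay above by more than their SDs. In those whole lists the chitin genes and regulators were also above the 47.5% to 51.6% of all protein-coding genes, which for the chitin genes was not so in the reproducible list.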

How the data were processed

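The authors deposited 5 peak lists on the dm6 build, per the labels: 1 per replicate, 1 called on pooled alignments and 1 reproducible list. Each deposited peak has a signal value (scale not stated), a −log10 q-value and a point source. The aligner, caller and threshold are not given in the sources used here, and neither is read depth, so intervals cover counting error of genes only. Signal ranked peaks within a list. Distances ran from any start of a gene (Ensembl release 115) to the nearest point source, and background percentages covered all 13945 protein-coding genes. Reference sequence came from RefSeq Release 6, the same build. Nothing was tested over members. Samples formed 1 group, so values are counts, shares and mean ± SD over 3 replicates.

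Members and lists were chosen with earlier results of these data known. Named genes were members with a reproducible or pooled promoter peak or one in at least 2 replicates, those 500 to 1000 bp away, the 3 farthest, every array, and up to 4 per other list. Symbols missing from the annotation were dropped. Alternatives changed the distance, start, list, chain gap, matching distance and replicates. Python 3.11.15, numpy 2.4.6, scipy 1.17.1 and matplotlib 3.10.9 were used. On simulated data, all 200 planted genes were recovered.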

Additional observations from a re-analysis of the deposited data

How the results depend on the processing

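Of 57 alternatives, 37 left a count within 1.5 times, a mean, median or density within 1 SD of the replicates, or the TATAAA share within its 95% Clopper-Pearson interval (69.6% to 85.4%), and 20 moved it. The 5 members with a reproducible promoter peak became 1 within 250 bp, 8 within 1000 bp, 16 in the pooled list and 1 among its strongest 4812 peaks. Pooled peaks matched in both lists left without a replicate gave 7 to 8 members when matched within 100 bp, against 36.6% to 40.5% of all protein-coding genes, and 5 to 10 when matched within 50 or 200 bp. The mean share of 11.9% became 4.06% within 250 bp, 19.7% within 1000 bp, 16.2% by called interval, 2.90% for the strongest peaks and 4.93% for a q-value of 0.01 or less, and 9.57% to 13.5% without a replicate. The clustered minus lone difference kept its sign on average under every alternative run, from 2.83 to 9.18 points, but in replicate 2 it was -0.591 points within 250 bp and -1.28 points without the 65A array. The median distance became 3942 bp in the pooled list and 14053 bp for the strongest 4812 peaks, with 5665 to 10090 bp without a replicate. Density in the arrays became 199 per Mb in the pooled list and 71.4 to 96.9 per Mb without a replicate, where those peak sets held more peaks overall (116 to 127 per Mb in the large arms). The share with TATAAA became 64.3% at 45 to 15 bp before the start on either strand. Lists with more or fewer peaks and wider or narrower windows give more or fewer calls by construction; for the other changes the cause was not tested. No paired analysis was possible because there was 1 group.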

Other observations

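The chromosome arms differed among the members. Arm 3L, with 47 members, held 4 of the 5 reproducible and 13 of the 16 pooled promoter peaks, and its members had a promoter peak in 22.7% ± 4.43 (SD, n = 3) of cases in the replicate lists. All protein-coding genes of that arm had 49.6% ± 1.41. Arm 2R, with 27 members, held 0 of the reproducible and 0 of the pooled ones, at 1.23% ± 2.14 in the replicates, against 47.0% to 52.2% of its protein-coding genes. Arm 3R, with 26 members, was at 5.13% ± 5.88 against 48.9% ± 1.91. The background was thus alike on these arms while the members' shares were not. Most members of an arm lie in a few arrays, so an arm and its arrays cannot be told apart.

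Replicate 3 gave promoter peaks that no other list held at Cpr65Aw, Acp65Aa, TwdlG, TwdlH, Cpr97Eb and Cpr12A, genes named after their values were seen. The point sources lay 10 bp from the start at Cpr65Aw and 2 bp at TwdlH, at ranks 20416 and 25379 of 30000. Members with a promoter peak in a single list were not confined to replicate 3. Cpr51A and Cpr67B had one in replicate 2 alone, and Cpr73D had one in replicate 1 alone. The share of all protein-coding genes with a promoter peak in replicate 3 alone was not computed, so these genes have no background. Replicate 3 also had the smallest share of peaks with a q-value of 0.01 or less, 54.3% against 60.9% in replicate 1 and 59.1% in replicate 2.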
